A study of Mus musculus with 2 samples.

Results

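The CXCR3 and CXCR6 chemokine axes were followed through 5 genes, the ligands Cxcl9, Cxcl10 and Cxcl16 and the receptors Cxcr3 and Cxcr6, taken by their symbols out of 54838 listed genes. All 5 were present in the data. They were measured by single-cell RNA sequencing in live immune cells that had been dissociated from mouse intestine and sorted. One library came from Dpf2 KO mice and 1 from WT mice, and both groups had received 10 Gy of X-rays, so no unirradiated cells enter any comparison. DPF2 is a subunit of the BAF chromatin remodelling complexes. Sorting used viability and whether cells carried GFP or tdTomato, and the labels give neither the gate of each library nor the Cre driver, the deleted part of Dpf2, the age, sex or number of the mice, or the time after irradiation.

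CXCL9 and CXCL10 are secreted chemokines that both bind CXCR3, a receptor of activated T cells and NK cells. Cxcl9 is a classic target of interferon gamma, while Cxcl10 also responds directly to type I interferon and to NF-kB. CXCL16 is made as a membrane-bound chemokine that can be shed, and it is the ligand of CXCR6, a receptor that marks tissue-resident T cells and innate lymphoid cells, among them many in the gut wall.

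The KO library kept 8199 cells with a median of 4099 UMIs (unique molecular identifiers, each a counted transcript molecule), and the WT library kept 10288 cells with a median of 4543 UMIs. A level below is the number of UMIs of a gene per 1000000 UMIs of a cell class. Dpf2 stood at 19.6 in all KO cells and 33.2 in all WT cells, and was lower in KO in each of the 9 classes compared. Since each genotype has 1 library, no difference here has a replicate check and none was tested. Bracketed ranges are 95% intervals of counting error only. The libraries shared 24 barcode sequences among their kept cells. Cell classes are named from marker genes of their clusters, and "monocytes or macrophages", for example, is short for clusters with such markers. Named classes were compared with at least 100 cells in each library, which left stromal cells (87 KO and 570 WT cells) and plasmacytoid dendritic cells (31 KO and 40 WT cells) as descriptions. Clusters that the markers left unnamed (409 KO and 182 WT cells) were not compared either. Among them, a cluster led by Defa24 held 254 KO and 2 WT cells.

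Cxcl9 and Cxcl10 are neighbours. On GRCm38, Cxcl9 lies on chromosome 5 at 92321347-92328079 and Cxcl10 at 92346638-92348889, both protein-coding genes on the minus strand with 18558 bases between them. The next gene of the cluster, Cxcl11 (92359544-92365485), is annotated as a polymorphic pseudogene. The whole of Cxcl10 lies within the span of Art3 on the opposite strand, and 133 of its 2252 exon bases are also exonic in Art3. The use of strand in counting was not given in the sources used here. Art3 itself had a level of 13.1 in KO and 11.2 in WT monocytes or macrophages, where Cxcl10 reached 1169 and 860. Cxcl16 is on chromosome 11 at 70453983-70459984 on the minus strand, and 552 of its bases, exonic in both genes, overlap Zmynd15 on the opposite strand, which had levels of 7.87 in KO and 3.67 in WT monocytes or macrophages. Cxcr6 (chromosome 9, 123806475-123811760, plus strand) lies within the span of Fyco1 on the opposite strand and shares no exon base with it. Fyco1 had a level of 51.5 in KO and 50.8 in WT T cells. Cxcr3 (chromosome X, 101731535-101734269, minus strand) is the only member on a sex chromosome.

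The 250 bases before the starts of Cxcl9 (chr5:92328080-92328329, minus strand) and Cxcl10 (chr5:92348890-92349139, minus strand) are shown because the 2 genes share a locus and a receptor and yet differed in opposite directions in monocytes or macrophages. They are from RefSeq on GRCm38.p6, and capitals mark matches on either strand to the core of an interferon-stimulated response element (GAAA, any 2 bases, GAAA), to kappa B patterns of 9 letters (GGGNNTTCC) or 10 letters (GGG, any 3 bases, TTCC), which can overlap each other, or to an AP-1 pattern (TGANTCA).
Cxcl9: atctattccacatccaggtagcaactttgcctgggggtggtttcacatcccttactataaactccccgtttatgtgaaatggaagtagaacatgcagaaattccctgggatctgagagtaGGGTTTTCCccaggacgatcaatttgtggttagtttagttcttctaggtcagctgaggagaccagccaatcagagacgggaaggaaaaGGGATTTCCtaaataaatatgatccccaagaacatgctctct
Cxcl10: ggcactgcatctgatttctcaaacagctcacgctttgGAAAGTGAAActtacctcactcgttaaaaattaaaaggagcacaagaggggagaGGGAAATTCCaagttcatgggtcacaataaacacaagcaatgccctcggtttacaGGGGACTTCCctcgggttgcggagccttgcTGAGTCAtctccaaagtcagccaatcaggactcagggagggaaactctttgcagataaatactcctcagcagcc
The Cxcl10 window held 1 match to the interferon core, from 213 to 204 bases before the start, and the Cxcl9 window none. Cxcl9 held 2 matches to the 9-letter kappa B pattern, beginning 130 and 42 bases before the start. Cxcl10 held 1 match to that pattern and 2 to the 10-letter one, beginning 159 and 104 bases before the start, and the 9-letter match lies inside the nearer of these. An AP-1 match began 74 bases before the Cxcl10 start. Of 32851 promoter windows of the same length, 2.98% held the interferon core, 4.98% the 9-letter and 4.65% the 10-letter kappa B pattern, and 6.75% the AP-1 pattern. The windows of Cxcr3 and Cxcr6 held no match to any of these. TTCNNNGAA, the gamma-activated site pattern found in 7.02% of windows, had no match in any of the 4 windows. The patterns were chosen after these windows had been seen, so the shares over all windows are no test of the matches. A match is a run of letters and does not show that a factor was bound. Whether the windows have a part in the differences between libraries was not tested.

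The 3 ligands had different sources. In the KO library, 63.2% of all Cxcl9 UMIs were in conventional dendritic cells, 18.9% in monocytes or macrophages and 10.4% in group 3 innate lymphoid cells (ILC3), although these classes made up 7.61%, 14.7% and 2.82% of the cells. In the WT library the same 3 classes held 46.5%, 36.1% and 6.20% of the Cxcl9 UMIs. Cxcl10 came from more kinds of cell. Monocytes or macrophages held 54.0% of its UMIs in KO and 41.3% in WT, and plasma cells held 16.4% in KO and 31.7% in WT. Cxcl16 lay mainly in phagocytes, with 45.5% of its KO UMIs in conventional dendritic cells and 45.4% in monocytes or macrophages, against 31.1% and 52.9% in WT.

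**Figure D1:**
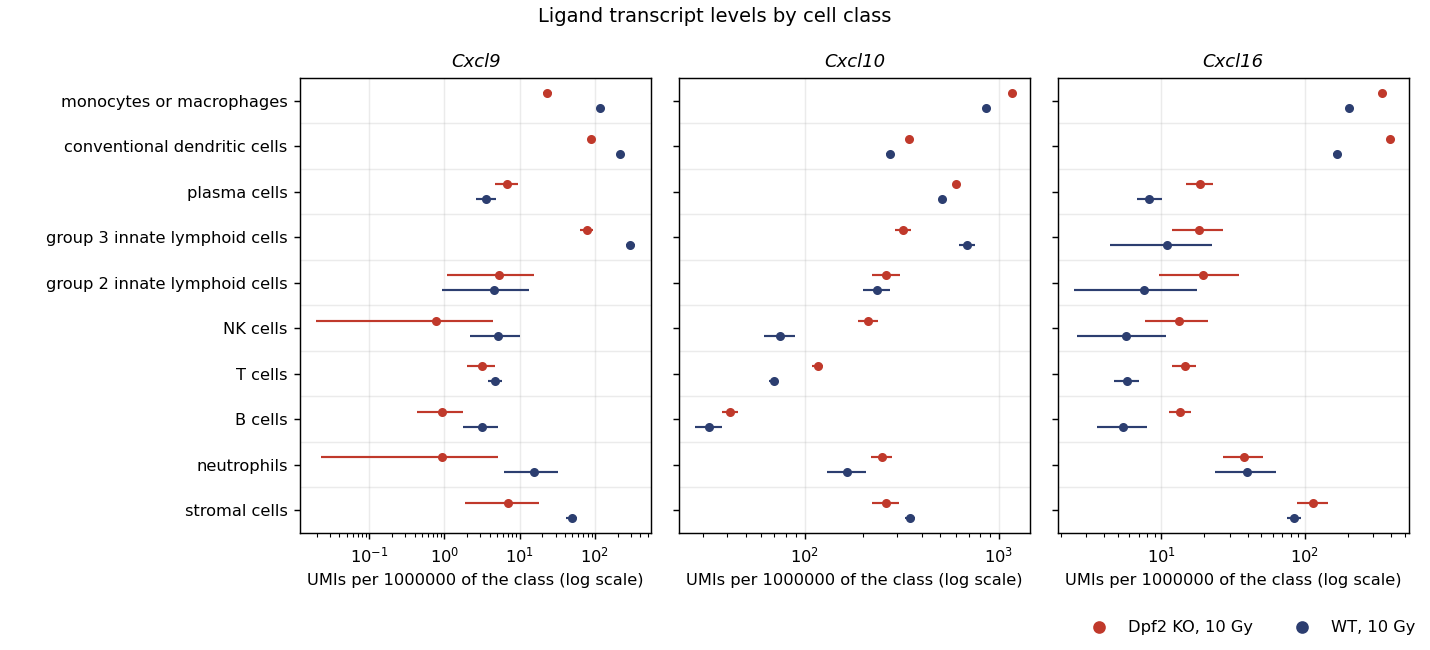
Level of each ligand (UMIs per 1000000 UMIs of the class, log scale) in 10 cell classes, with the KO library in red above the WT library in blue; points are summed levels and bars exact Poisson intervals. In monocytes or macrophages and in conventional dendritic cells Cxcl9 is lower in KO and Cxcl16 higher. Cxcl10 is higher in both as plotted, but lower in KO conventional dendritic cells (ratio 0.792) when only subclusters shared by both libraries are pooled. Those subclusters differ in size between libraries and in the direction of Cxcl10.

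Cxcl9 was the ligand with the largest difference. In monocytes or macrophages its level was 23.4 in KO and 118 in WT, a KO over WT ratio of 0.198 (0.169 to 0.231). In conventional dendritic cells it was 88.7 in KO and 214 in WT (ratio 0.414, 0.376 to 0.454). ILC3 had 77.9 in KO and 296 in WT (ratio 0.264, 0.206 to 0.336). These 3 classes were the ones where Cxcl9 had enough counts to be ranked among other genes (100 or more UMIs when the libraries are added, and detection in 5% or more of cells in either library). Only 5 of 7906 genes ranked in monocytes or macrophages had a lower log2 ratio, 16 of 8354 in conventional dendritic cells and 6 of 3293 in ILC3. In the other compared classes Cxcl9 was at or below 15.5, a value that rested on 7 UMIs in WT neutrophils, with B cells at 0.936 in KO and 3.14 in WT. The stromal cells had 6.96 in KO and 48.9 in WT. Within the stromal class the WT signal was highest in the cluster led by Selp and Flt1, endothelial genes, at 3.83 in KO (37 cells, 1 UMI) and 109 in WT (129 cells).

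Fewer KO phagocytes held the transcript. After every cell had been thinned to 1000 UMIs, Cxcl9 was found in 1.57% of KO and 7.80% of WT monocytes or macrophages, and in 4.05% of KO and 10.1% of WT conventional dendritic cells. Unthinned, the shares were 6.15% in KO and 16.2% in WT monocytes or macrophages, and 18.1% in KO and 26.0% in WT conventional dendritic cells. B cells, with medians of 3344 UMIs in KO and 3548 in WT, gave thinned shares of 0.0412% in KO and 0.179% in WT, which was taken as the background. Cxcl9 was also uneven among cells. The 5% of conventional dendritic cells with the most Cxcl9 held 80.7% of its UMIs in KO and 72.7% in WT, and the highest single cell had 63 UMIs in KO and 102 in WT.

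Cxcl10 did not follow Cxcl9. Its level in monocytes or macrophages was 1169 in KO and 860 in WT (ratio 1.36, 1.32 to 1.40), and the thinned share of these cells with a UMI was 52.3% in KO and 38.5% in WT. That rise was not rare, since 715 of the 7906 genes ranked there had a higher log2 ratio. T cells had 117 in KO and 69.4 in WT (ratio 1.69, 1.55 to 1.84) and NK cells 213 in KO and 74.8 in WT (ratio 2.85, 2.29 to 3.57). Plasma cells were a rich source in both libraries, at 604 in KO and 512 in WT (ratio 1.18, 1.13 to 1.23), and 41.1% of KO and 37.5% of WT plasma cells held at least 3 Cxcl10 UMIs. They had been chosen as the class that should lack the 5 genes, and for Cxcl10 they did not serve. B cells had the lowest level of the compared classes, 41.4 in KO and 32.2 in WT, with thinned shares of 4.33% and 2.78%, and they set the background instead. Neutrophils had 249 in KO and 166 in WT (ratio 1.499, 1.16 to 1.96). There 325 of 2300 ranked genes had a higher log2 ratio, and 13.2% were at least 1.5-fold higher in KO. In B cells 953 of 6972 ranked genes had a higher log2 ratio than Cxcl10. Innate lymphoid cells of group 2 (ILC2) had 263 in KO and 235 in WT, with an interval of the ratio from 0.888 to 1.41. Stromal cells, which were not compared, had a lower Cxcl10 level in KO, from 150 of 574510 UMIs in KO and 1183 of 3393178 in WT.

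ILC3 were the compared class in which Cxcl10 was lower in KO, at 320 in KO and 684 in WT (ratio 0.467, 0.408 to 0.535). Both CXCR3 ligands were therefore lower in KO ILC3. The cells with Cxcl9 UMIs numbered 36 of 231 in KO and 42 of 113 in WT, with up to 20 and 24 UMIs in a single cell. After thinning, 69.2% of the 13 KO ILC3 with Cxcl9 also held Cxcl10, against 15.7% of the other KO ILC3, and in WT 52.4% of 21 did, against 24.2% of the others. The summed level of 18 monocyte or macrophage markers was 339 in KO ILC3 with Cxcl9 and 453 in KO ILC3 without it, and 329 and 426 in the corresponding WT cells. The sum of 19 dendritic markers was 501 with and 525 without Cxcl9 in KO ILC3, but 654 with and 541 without it in WT ILC3. Over the whole class the monocyte or macrophage sum was 435 in KO and 388 in WT, with Chil3, C1qc, Cd68, F13a1 and Trem2 at 0 in WT and no marker at 0 in KO. The dendritic sum was 522 in KO and 585 in WT, with 3 markers at 0 in KO and 7 in WT. The 9 plasma cell markers summed to 3790 in KO ILC3 and 1157 in WT ILC3. By cell, that sum was 802 in KO ILC3 with Cxcl9 and 4333 in KO ILC3 without it, against 1084 and 1203 in WT. Split by Cxcl10 instead, it was 6487 in KO ILC3 with a Cxcl10 UMI and 876 in those without. The corresponding WT sums were 1135 and 1191. The part of plasma cell transcripts in the ILC3 differences was not tested.

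The direction for Cxcl10 in conventional dendritic cells depended on which of them were counted. Over the class its level was 346 in KO and 274 in WT (ratio 1.26, 1.19 to 1.34), and a single KO cell held 256 of the 2519 KO UMIs. A higher log2 ratio was found for 973 of 8354 ranked genes. Counting only the subclusters with at least 20 cells in each library turned the direction, with 209 in KO and 264 in WT (ratio 0.792, 0.735 to 0.854). This pooled value still joins subclusters of unlike size, such as the mature one with 369 KO and 77 WT cells. Within subsets, Cxcl10 was higher in KO in mature and Cd209a-led cells and lower in type 1 dendritic cells. The part of the mix in the pooled value was not tested. Cells with UMIs of the X-linked Xist and none of 4 Y-linked genes gave 333 in KO and 354 in WT (ratio 0.939, 0.836 to 1.06), while those with Y-linked UMIs alone gave 374 in KO and 229 in WT (ratio 1.64, 1.47 to 1.82). Cxcl9 was lower in KO under each of these counts, with ratios of 0.224 in cells with Xist alone and 0.581 in cells with Y-linked UMIs alone. In monocytes or macrophages the Cxcl9 ratios of the same 2 kinds of cell were 0.0882 and 0.194.

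Mononuclear phagocytes, clustered again, formed subsets, of which 9 had at least 50 cells in each library. Several others were nearly private to 1 library. An early monocyte subset led by Tmem267 held 455 KO and 13 WT cells, while an early monocyte subset led by Plcb1 held 7 KO and 513 WT cells and an activated one 8 KO and 507 WT cells. Dendritic cells were uneven too, with 12 KO and 122 WT cells in a subset led by Plet1, whose Cxcl9 level was 7.19 in KO (1 UMI) and 186 in WT (238 UMIs), and 369 KO and 77 WT cells in the mature subset led by Ccl22. Totals of either class therefore join different cells in each library, and the 9 shared subsets give the closer comparison. Cxcl9 was lower in KO in all 9, with every interval of the ratio below 1. Cxcl10 was higher in 5 and lower in 3 by the same measure. For Cxcl16, 7 subsets were higher and none was lower. The unnamed subsets led by Mir6236 and Gadd45a, both among the 9, were shallow, with medians of 1273 and 1324 UMIs. Their Cxcl9 rested on 0 and 1 KO UMIs and on 13 and 24 WT UMIs.

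**Figure D2:**
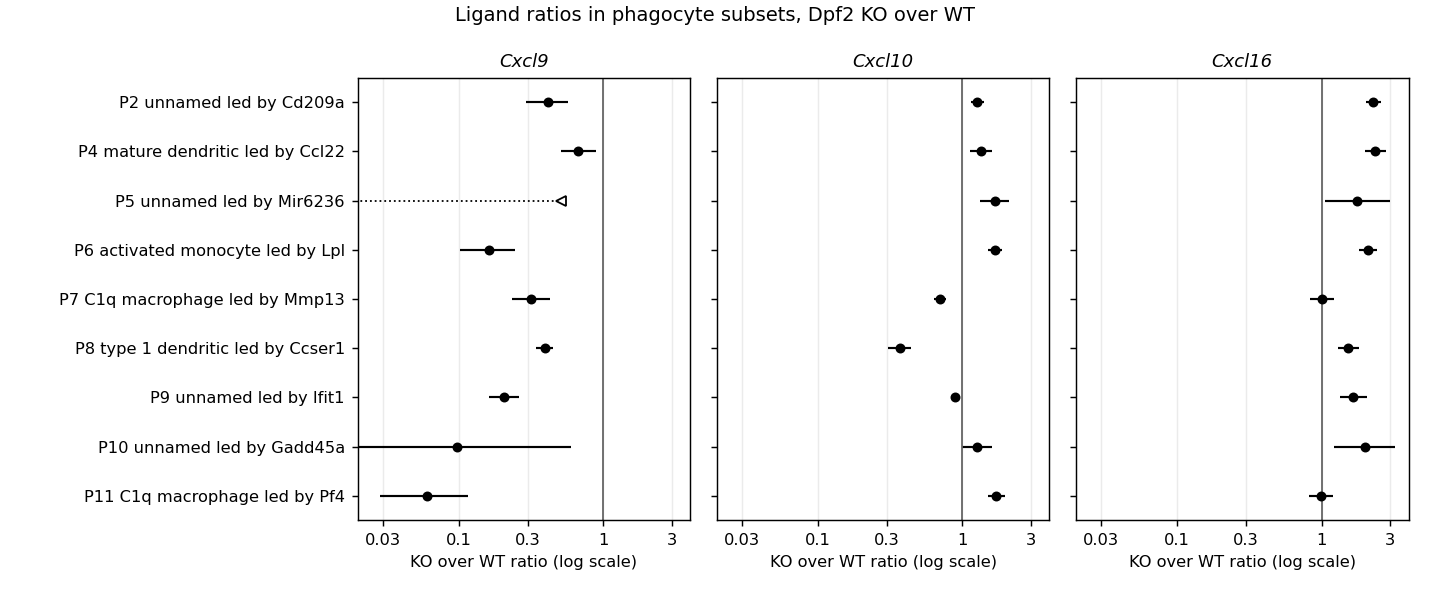
Ratio of KO over WT levels (log scale, line at 1) of the 3 ligands in the 9 phagocyte subsets with at least 50 cells in each library; bars are 95% counting intervals, and the open triangle with a dotted line is the upper bound for a subset with 0 KO UMIs. All 9 Cxcl9 intervals lie below 1, Cxcl10 ratios lie on both sides, and Cxcl16 is near 1 in both C1q macrophage subsets.

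Among the monocytes and macrophages, the CXCR3 ligands differed in opposite directions in some subsets and were both lower in KO in others. The activated monocyte subset led by Lpl had Cxcl9 at 28.7 in KO and 177 in WT (ratio 0.162, 0.103 to 0.244) and Cxcl10 at 642 in KO and 382 in WT (ratio 1.68, 1.497 to 1.89). The C1q macrophage subset led by Pf4 had 13.6 in KO and 224 in WT for Cxcl9 (ratio 0.0608, 0.0288 to 0.117), and 1669 in KO and 974 in WT for Cxcl10 (ratio 1.71, 1.498 to 1.96). In the C1q subset led by Mmp13 both were lower in KO, Cxcl9 at 91.9 in KO and 290.0 in WT and Cxcl10 at 1443 in KO and 2051 in WT. The subset led by the interferon-induced gene Ifit1 had the highest Cxcl10 of all, 2539 in KO and 2835 in WT (ratio 0.896, 0.835 to 0.962), and its Cxcl9 was 89.5 in KO and 433 in WT.

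Among dendritic cells, the type 1 subset had the highest Cxcl9 share of the 9 subsets, and both ligands were lower in KO. Its Cxcl9 level was 148 in KO and 375 in WT (ratio 0.395, 0.343 to 0.453) and its Cxcl10 level 84.1 in KO and 227 in WT (ratio 0.371, 0.308 to 0.445). Mature dendritic cells led by Ccl22 had 59.2 in KO and 88.1 in WT for Cxcl9 (ratio 0.673, 0.511 to 0.896), and 245 in KO and 183 in WT for Cxcl10 (ratio 1.34, 1.12 to 1.61). They numbered 369 in KO and 77 in WT. The subset led by Cd209a, left unnamed by the marker rule, had 34.8 in KO and 84.2 in WT for Cxcl9 and 433 in KO and 341 in WT for Cxcl10.

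The balance of the 2 genes within a library does not depend on its depth, and it was taken as the share of Cxcl9 among all Cxcl9 and Cxcl10 UMIs. Since the 2 transcripts may be captured unequally, only the difference of that share between libraries is read. In monocytes or macrophages it was 1.96% (1.70% to 2.25%) in KO and 12.1% (11.4% to 12.8%) in WT, an odds ratio of Cxcl10 over Cxcl9 of 6.88 (5.88 to 8.08). In conventional dendritic cells it was 20.4% in KO and 43.9% in WT (odds ratio 3.05, 2.72 to 3.41). Its log2 odds ratio of 1.61 was 0.95 over the subclusters that both libraries filled with 20 cells or more, and that of monocytes or macrophages, 2.78, was 3.97 in cells with Xist alone. In ILC3 the share of Cxcl9 was 19.6% in KO and 30.2% in WT (odds ratio 1.77, 1.34 to 2.35). Type 1 dendritic cells kept their balance within the interval, at 63.8% in KO and 62.3% in WT (odds ratio 0.939, 0.744 to 1.18). Plasma cells were at 1.11% in KO and 0.698% in WT (odds ratio 0.624, 0.386 to 1.02).

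**Figure D3:**
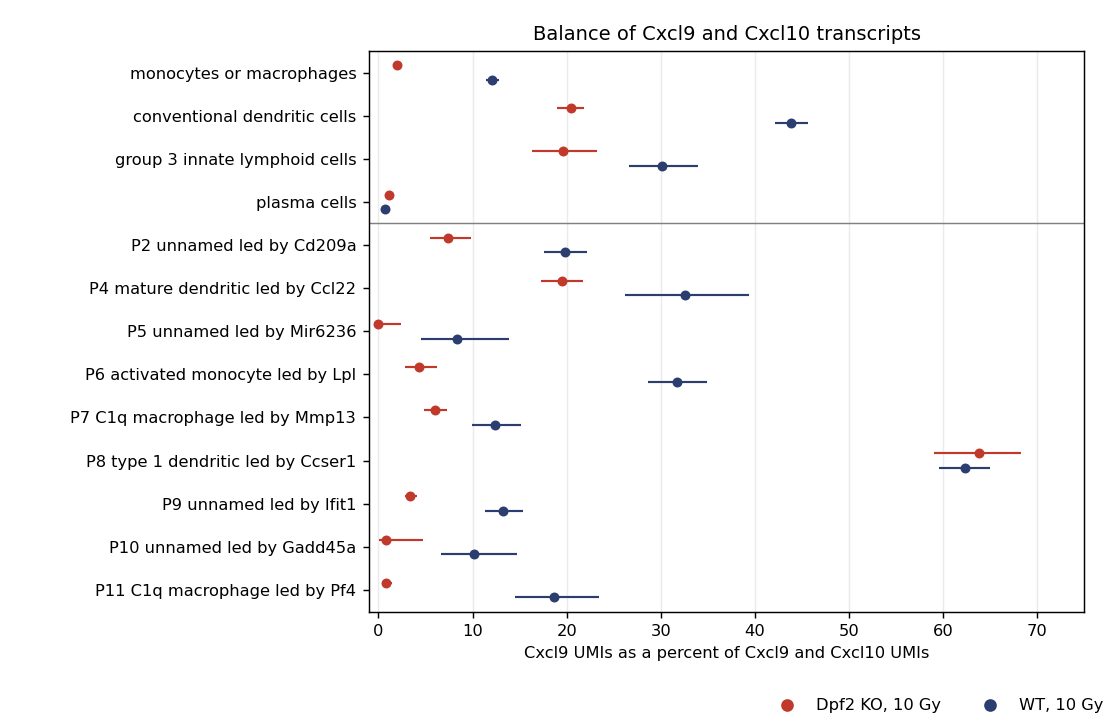
Share of Cxcl9 among Cxcl9 and Cxcl10 UMIs (percent) in 4 cell classes and in the 9 phagocyte subsets with at least 50 cells per library, KO in red above WT in blue, with exact Clopper-Pearson intervals. The KO share is below the WT share except in plasma cells and in the type 1 dendritic subset, where the intervals overlap.

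The 2 ligands were also counted cell by cell. Of KO monocytes or macrophages with a thinned Cxcl9 UMI, 9 of 18 also held Cxcl10, beside 52.3% of those without Cxcl9. In WT the shares were 52.6% of 133 and 37.3% of the rest. WT conventional dendritic cells with Cxcl9 held Cxcl10 in 32.8% of cases, against 11.4% of those without, and the KO shares were 28.0% of 25 cells and 19.3%.

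Cxcl16 was higher in KO mononuclear phagocytes. Conventional dendritic cells had 395 in KO and 168 in WT (ratio 2.35, 2.19 to 2.52) and monocytes or macrophages 348 in KO and 203 in WT (ratio 1.71, 1.62 to 1.82). Neutrophils had 37.5 in KO and 39.8 in WT (ratio 0.941, 0.529 to 1.74). The thinned share of conventional dendritic cells with a UMI was 31.9% in KO and 16.6% in WT. Of 8354 genes ranked in conventional dendritic cells, 29 had a higher log2 ratio. By subset the ratio was 2.36 (1.998 to 2.80) in mature dendritic cells, at 474 in KO and 201 in WT, and 2.10 (1.83 to 2.42) in the Lpl-led monocytes, at 513 in KO and 244 in WT. Type 1 dendritic cells had 180 in KO and 118 in WT (ratio 1.53, 1.29 to 1.81).

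The C1q macrophages stood apart from the rest for Cxcl16. The subset led by Mmp13 had 498 in KO and 496 in WT (ratio 1.004, 0.832 to 1.22), and the subset led by Pf4 514 in KO and 519 in WT (ratio 0.990, 0.814 to 1.21). Both intervals end below the ratio of the mature dendritic cells, and the difference between subsets was not tested. These macrophages already had, in WT, the highest Cxcl16 levels of the 9 subsets.

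In lymphoid cells Cxcl16 was close to its background. It stood at 14.6 in KO and 5.78 in WT T cells, 13.5 in KO and 5.43 in WT B cells and 18.6 in KO and 8.29 in WT plasma cells. No T cell had more than 2 UMIs. The ratios of 2.52, 2.49 and 2.24 resembled that of all cells pooled, 143 in KO and 61.7 in WT (ratio 2.31, 2.22 to 2.41). Whether free RNA accounts for these low levels was not tested.

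The receptors were read mainly in T cells. Cxcr3 had 64.4% of its 132 KO UMIs and 82.6% of its 524 WT UMIs in T cells, and Cxcr6 had 68.4% of 1296 and 85.0% of 3360. T cells themselves were 20.3% of KO and 36.2% of WT cells. ILC3 held 16.8% of the Cxcr6 UMIs in KO and 3.07% in WT, and were 2.82% of KO and 1.10% of WT cells. These shares depend on the numbers of ILC3 and T cells as well as on the level per class.

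Cxcr3 in T cells was at 11.05 in KO and 24.3 in WT (ratio 0.455, 0.356 to 0.575), from 85 and 433 UMIs. Plasma cells, as a class that should lack it, had 3.30 in KO and 2.51 in WT. The thinned share of T cells with a UMI was 0.797% in KO and 1.88% in WT, against 0.335% in KO and 0.231% in WT plasma cells. NK cells had 4.68 in KO and 6.98 in WT from 6 and 11 UMIs, and the interval of the ratio ran from 0.204 to 1.98, so no difference was detectable at this depth. In each of the remaining compared classes but plasma cells it rested on at most 15 UMIs in either library.

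Cxcr6 in T cells was at 115 in KO and 160 in WT (ratio 0.719, 0.666 to 0.776), with thinned shares of 9.56% in KO and 13.7% in WT. ILC3 had 160 in KO and 162 in WT (ratio 0.989, 0.779 to 1.26), NK cells 55.4 in KO and 51.4 in WT (ratio 1.08, 0.773 to 1.503) and ILC2 101 in KO and 170 in WT (ratio 0.593, 0.423 to 0.823). In order of level, KO ILC3 came first, then T cells and ILC2, whose intervals overlapped, and then NK cells, while in WT ILC2, ILC3 and T cells were within each other's intervals and NK cells lower. Plasma cells gave a background of 0.413 in KO and 4.94 in WT, and B cells 1.35 in KO and 4.18 in WT.

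**Figure D4:**
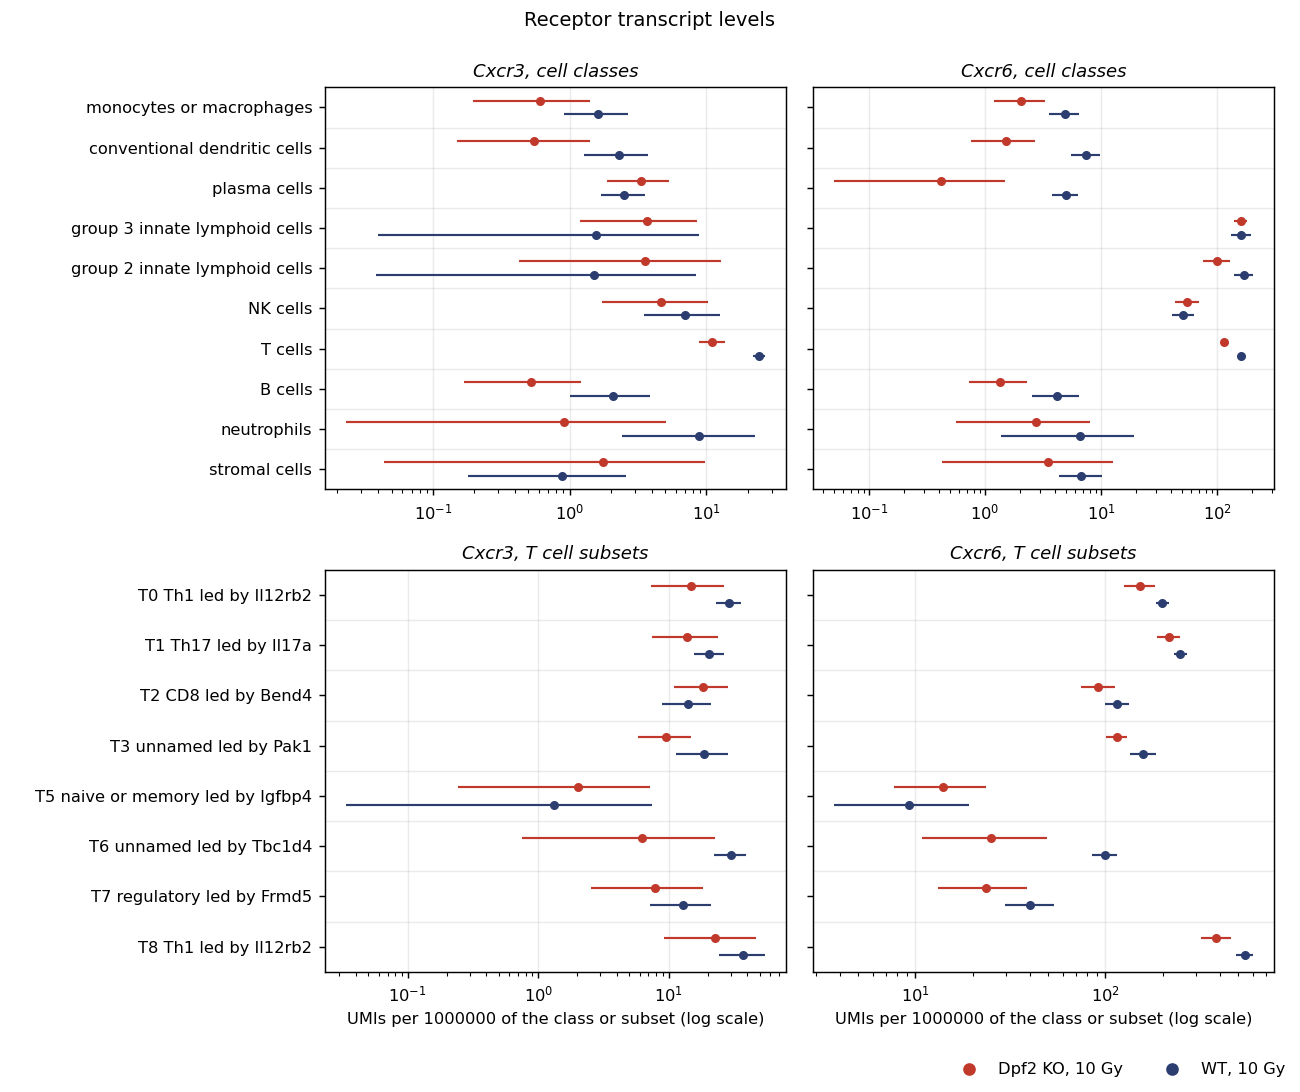
Levels of Cxcr3 and Cxcr6 (UMIs per 1000000, log scale) in 10 cell classes and in the 8 T cell subsets with at least 50 cells in each library, KO in red above WT in blue, with exact Poisson intervals. Cxcr6 is lower in KO in 7 of the 8 T cell subsets and similar in ILC3, and Cxcr3 rests on few UMIs in most subsets.

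The mix of T cells differed between libraries, so the receptors were also read within 12 T cell subclusters. Over the class, the 8 T cell markers summed to 1647 in KO and 2366 in WT. Only Bcl11b among them was higher in KO, at 426 in KO and 385 in WT. Whether the receptor differences go with this lower sum was not tested. The largest KO subcluster, unnamed and led by Pak1, held 438 KO and 222 WT cells. The naive or central memory subset held 317 KO and 211 WT cells and had little of either receptor, with Cxcr6 at 14.0 in KO and 9.29 in WT and Cxcr3 at 2.01 in KO and 1.33 in WT. A CD8 subset led by Ly6c2, with Cxcr3 at 6.72 in KO and 37.7 in WT, held 37 KO and 619 WT cells. Its KO level is close to the floor, since these cells held 148711 UMIs of all genes. With the KO mix of subclusters and the WT level of each, Cxcr3 would have been 18.03, between the observed 11.05 in KO and 24.3 in WT. With the WT mix and KO levels it would have been 11.8. The same sums gave 149 and 124 for Cxcr6, against 115 in KO and 160 in WT. None of these sums has an interval. Those with KO levels also weigh subclusters of few KO cells, such as the Ly6c2-led one and the dividing one (25 KO and 191 WT cells). They do not settle how much of the difference lies within subclusters.

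Within subsets, Cxcr6 was lower in KO in 7 of the 8 listed, with the interval below 1 in 4. Th1 cells led by Il12rb2, which formed a pair of subclusters, had 152 in KO and 199.8 in WT in the larger subcluster (ratio 0.758, 0.615 to 0.929) and 383 in KO and 542 in WT in the smaller one (ratio 0.707, 0.570 to 0.871), the highest level of any subset. Th17 cells had 216 in KO and 248 in WT (ratio 0.868, 0.738 to 1.02) and regulatory T cells 23.4 in KO and 40.1 in WT (ratio 0.583, 0.303 to 1.06). An unnamed subset led by Tbc1d4 differed most, at 24.9 in KO and 99.7 in WT (ratio 0.250, 0.106 to 0.504). Cxcr3 was lower in 6 of the 8, with the interval below 1 in 2, the larger Th1 subcluster (14.7 in KO and 28.8 in WT) and the Tbc1d4-led subset (6.23 in KO and 30.0 in WT). The Tbc1d4-led subset held 71 KO and 384 WT cells, and its KO level of Cxcr3 rested on few UMIs. CD8 cells led by Bend4 had 18.4 in KO and 14.1 in WT, with an interval of the ratio from 0.673 to 2.51. Both receptors were found together in 24.6% of the 69 WT T cells with a thinned Cxcr3 UMI, against 13.5% of other WT T cells for Cxcr6, while only 13 KO T cells had a Cxcr3 UMI and 2 of them held Cxcr6.

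Set against all ranked genes of a class, a 2-fold difference was rare. Counted after adding 10 per 1000000 to both levels, 0.708% of genes in monocytes or macrophages were 2-fold lower in KO and 0.594% were 2-fold higher. Of the 3 members ranked there, Cxcl9 was 2-fold lower and none was 2-fold higher. At 1.5-fold, 2.82% of genes were lower and 4.43% higher, the second with Cxcl16 among them. In conventional dendritic cells 0.431% were 2-fold lower and 0.766% 2-fold higher (3.09% and 4.0% at 1.5-fold), and of 3 ranked members Cxcl9 was 2-fold lower and Cxcl16 2-fold higher. In ILC3 0.759% were 2-fold lower and 0.364% higher (5.5% and 5.07% at 1.5-fold), with Cxcl9 and Cxcl10 among the lower and Cxcr6 in neither.

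NK cells had 0.265% of genes 2-fold higher and 0.554% lower (3.2% and 4.41% at 1.5-fold), and Cxcl10 was 2-fold higher there, its ratio exceeded by 1 of 4152 genes. In T cells 0.61% were 2-fold lower and 0.19% higher, with none of the 4 ranked members among them. At 1.5-fold, T cells had 4.45% of genes lower, with Cxcr3 among them, and 2.59% higher, with Cxcl10 and Cxcl16 among them. ILC2 had 1.27% 2-fold lower and 1.36% higher, and at 1.5-fold 5.7% lower, with Cxcr6 among them, and 7.69% higher. Plasma cells had 0.978% 2-fold lower and 0.514% higher, and at 1.5-fold 7.64% lower and 2.07% higher, with Cxcl16 among the higher. The median log2 ratio of all ranked genes in plasma cells was -0.16, so the Cxcl10 value there, 0.23, lay further above that median than above 0.

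Genes of the surrounding pathways were read from lists, as counts beside the same over all ranked genes of the class. The list of type I interferon and its targets was higher in KO phagocytes when each class was summed. The phagocyte subset led by Ifit1, a gene of this list, held 152 KO and 65 WT cells. The part of that mix in the class differences was not tested. Of 16 ranked members in monocytes or macrophages, 9 were at least 1.5-fold higher and none lower, with a median log2 ratio of 0.60 beside 0.07 for all genes, where 4.43% of genes were 1.5-fold higher. Ifit1, an antiviral effector, was at 310 in KO and 136 in WT, Ifit2 at 99.6 in KO and 38.9 in WT, and Mx1, an antiviral GTPase, at 31.4 in KO and 10.8 in WT. Of 15 ranked members in conventional dendritic cells 9 were higher and none lower, with a median of 0.66 beside -0.02, where 4.0% of genes were 1.5-fold higher. There Ifit1 was at 153 in KO and 41.3 in WT, Rsad2 at 300.3 in KO and 96.0 in WT, and Oasl1 at 501 in KO and 198 in WT.

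The list for sensing of interferon gamma (which includes its receptor and interferon regulatory factors) did not show this. In monocytes or macrophages none of 10 ranked members was 1.5-fold apart, with a median of -0.08. In conventional dendritic cells 1 of 10 was lower, where 3.09% of all genes were, with a median of -0.17. In ILC3 2 of 8 were lower and none higher, where 5.5% of all genes were lower, with a median of -0.37 beside 0.02. Irf1, a transcription factor induced by interferon gamma, was at 205 in KO and 458 in WT ILC3. In ILC3 the type I list had 3 ranked members, none 1.5-fold apart, with a median of -0.38.

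**Figure D5:**
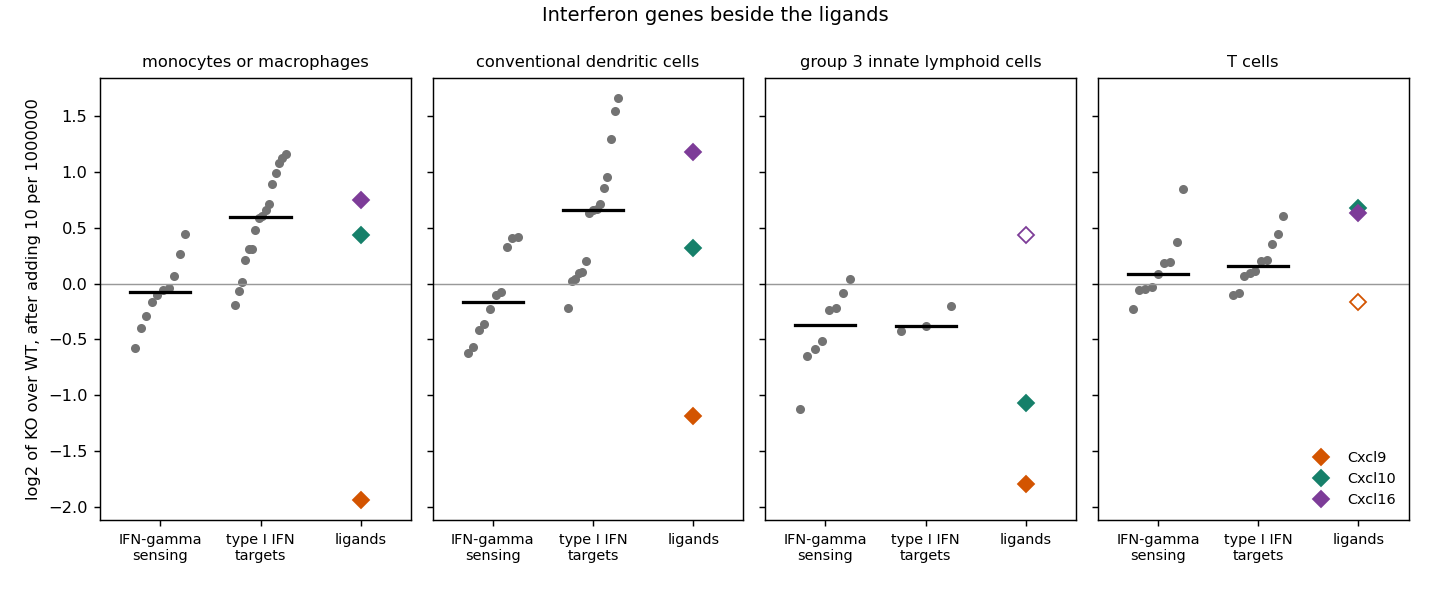
Log2 of KO over WT after adding 10 per 1000000, for the ranked genes of 2 interferon lists (grey points, black line at the median) and for the 3 ligands (diamonds, open where the gene had too few counts to be ranked), in 4 cell classes. The type I interferon list lies above 0 in monocytes or macrophages and in conventional dendritic cells, and the interferon gamma sensing list does not.

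The list for the supply of interferon gamma had a median below 0 in each of the 9 compared classes, but some of these medians say little. The one in ILC3 was -0.006 over 3 ranked genes, and those in ILC2 and neutrophils rested on 2 and 3 genes. In plasma cells the median was -0.30 beside -0.16 for all genes. For conventional dendritic cells that median was -0.28. There 2 of 9 ranked genes of that list were 1.5-fold higher and 3 lower, beside 4.0% and 3.09% of all genes. Il12b, which encodes the p40 chain of IL-12, was at 111 in KO and 40.7 in WT. Tbx21, which encodes T-bet, was at 9.34 in KO and 29.5 in WT. These sums join dendritic subsets of unlike size, such as the mature one with 369 KO and 77 WT cells. In monocytes or macrophages 1 of 6 was 1.5-fold higher and 2 were lower, beside 4.43% and 2.82% of all genes, with a median of -0.26. The higher one was Il15, a cytokine for NK cells and memory T cells, at 95.4 in KO and 40.5 in WT. In T cells none of 7 was 1.5-fold apart and all 7 were below 0, with a median of -0.14 beside -0.01. The NF-kB list had a median of 0.39 in T cells, with 3 of 14 ranked members 1.5-fold higher and none lower, where 2.59% of all genes were higher. Its median was also 0.39 in plasma cells, with 4 of 14 higher where 2.07% of all genes were. In ILC2 it was 0.34, with 2 of 10 higher where 7.69% of all genes were. Conventional dendritic cells had 5 of 16 higher and none lower, with a median of 0.25 beside -0.02, where 4.0% of all genes were higher. Monocytes or macrophages had 2 of 16 higher and 1 lower, beside 4.43% and 2.82% of all genes, with a median of 0.08 beside 0.07. ILC3 had none of 12 higher and 1 lower, with a median of -0.08. Nfkbia, the gene of the NF-kB inhibitor IkBa, was at 1040 in KO and 535 in WT T cells.

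Of the list of other CXCR3 ligands and of enzymes that process these chemokines, Pf4 was the member apart in monocytes or macrophages, at 92.05 in KO and 25.8 in WT (ratio 3.57, 3.08 to 4.15). Its product, platelet factor 4, can bind forms of CXCR3 in humans, and the gene also marks C1q macrophages, whose subset led by Pf4 held 111 KO and 58 WT cells. Cxcl11, named after its values were seen, was at 25.2 in KO and 24.3 in WT monocytes or macrophages. Among the residency partners of CXCR6, Itgb7, the integrin chain for homing to the gut, was lower in KO in T cells (53.6 in KO and 109 in WT), ILC3 (60.3 in KO and 135 in WT), ILC2 (63.6 in KO and 117 in WT) and NK cells (40.6 in KO and 77.4 in WT). In T cells 2 of 9 ranked partners were 1.5-fold lower and none was higher, where 4.45% of all genes were lower. Lef1, a factor of naive T cells, was at 329 in KO and 212 in WT T cells.

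The genes whose pattern was most like each member were found by Pearson correlation of log2 levels over 54 points, each a class or subset of 1 library with at least 50 cells, among 10042 genes. The points share libraries and depth, and the values are descriptions. Cxcl9 was nearest to Batf3 (0.840), a factor of type 1 dendritic cells, followed by Ppfia4, H2-Eb1, Tbxas1 and Sestd1. Cxcl10 was nearest to Ifi204 (0.867), Ccrl2 and Rsad2, then Fap and Mdm2. Cxcl16 was nearest to Sowahc (0.949), with Sh3pxd2b, Psap, Fmnl2 and Stx3 next. Cxcr3 was nearest to Tigit (0.878), an inhibitory receptor of T and NK cells, then Gm43065, Vcpkmt, Cd6 and Themis. Cxcr6 was nearest to Dgat1 (0.936), Il18r1, Cd96, Abcb1a and Zap70.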

How the data were processed

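The authors deposited, for each library, a filtered matrix of raw UMI counts per gene and cell barcode; it was made with Cell Ranger 7.0.0 on GRCm38, per the submitters' processing notes. Whether intronic reads and strand entered the counts was not given in the sources used here. The KO file held 8794 barcodes and 49590755 UMIs, the WT file 10958 and 64786549.

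Cells with fewer than 200 genes, fewer than 500 UMIs or more than 20% mitochondrial UMIs were left out, as were Scrublet doublets (482 KO and 608 WT cells; scanpy 1.11.5). The 2 libraries were clustered jointly, with no correction for library (2000 variable genes, 30 principal components, 20 neighbours, Leiden at resolution 1 with leidenalg 0.10.2 and igraph 0.11.9). The 5 members and the pathway genes that mark no cell type were kept out of the clustering. T cells and phagocytes were clustered again. A cluster was named for the class with the most markers among its 100 genes of highest fold, with at least 3 markers there and 3 detected in at least 10% of the cluster, unless another class led among the top 10. This naming rule was set once clusters had been viewed.

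Levels were UMIs summed over a class, with exact Poisson intervals; ratios have conditional binomial and shares Clopper-Pearson intervals, all at 95% and for counting error only. Log2 ratios were taken after adding 10 per 1000000. No test was run. Scripts were checked on simulated counts. Pathway genes were named only if ranked and at least 1.5-fold apart, at most 8 per class by size of the log2 ratio (some that met this rule are not reported here), and for each member the 5 genes of highest correlation were named; Art3, Fyco1 and Zmynd15 were added as overlapping genes and the promoter motifs were chosen after the windows had been seen. The members and lists were chosen with earlier results of these data known. Alternatives covered resolution, clustering, doublets, mitochondrial limit, averaging, weighting, pseudocount, thinning, scale and the split by Xist and Y-linked UMIs.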

Additional observations from a re-analysis of the deposited data

Results flagged for a closer look

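Cxcl10 differed in opposite directions in 2 classes of cell under the same contrast. Its KO over WT ratio was 0.467 in group 3 innate lymphoid cells, below 1 over the whole counting interval, and 2.85 in NK cells, above 1 over the whole counting interval. It was also above 1 in monocytes or macrophages, T cells, B cells, neutrophils and plasma cells. In conventional dendritic cells it was 1.26 over the class but 0.792 over the pooled subclusters with at least 20 cells in each library. Those subclusters differed in size between libraries and in the direction of Cxcl10. The difference between classes was not tested, since there is 1 library per genotype.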

How the results depend on the processing

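Values here are log2 of KO over WT after adding 10 per 1000000, unless said otherwise. Of 214 alternatives over 24 results, 156 stayed within counting error of the reported value (or within 1.5 times, for counts of genes), 55 moved beyond it and 3 changed sign; the causes were not tested. The 3 concern Cxcl10 in conventional dendritic cells (0.32 as reported), at -0.088 in cells with Xist UMIs only, -0.11 with finer subclusters weighted alike and -0.32 in subclusters with at least 20 cells in each library. The last 2 settings were chosen after seeing the data. That result otherwise moved to 0.41 with members and pathway genes left in the clustering, 0.20 with doublets kept, 0.41 at a mitochondrial limit of 10%, 0.46 averaged over cells, 0.48 thinned and 0.69 in cells with Y-linked UMIs only.

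Averaging over cells gave -1.75 for Cxcl9 in monocytes or macrophages and -0.55 for Cxcr6 in T cells. Weighting clusters alike gave -2.20 for Cxcl9, 0.33 for Cxcl10 and 0.64 for Cxcl16 in monocytes or macrophages. A pseudocount of 1 gave -2.29 for Cxcl9 there and -1.07 for Cxcr3 in T cells. Thinning to 1000 UMIs gave -1.66 for Cxcl9 and 0.50 for Cxcl10 in monocytes or macrophages, -0.63 for Cxcl9 in conventional dendritic cells, and -0.97 in T cells and -0.71 in NK cells for Cxcr3. Clustering each library alone gave 0.39 for Cxcl10 in monocytes or macrophages, 0.82 for Cxcl10 in T cells and -0.57 for Cxcr6 in T cells. The median ratio as scale gave 0.37 for Cxcl10 in monocytes or macrophages.

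Cells with Xist only gave -2.79 and -2.01 for Cxcl9 in monocytes or macrophages and in conventional dendritic cells, 1.35 for Cxcl16 in conventional dendritic cells, 0.45 for Cxcl10 in T cells and -0.44 for Cxcr6 in ILC3. Cells with Y-linked UMIs only gave -0.73 for Cxcl9 and 1.34 for Cxcl16 in conventional dendritic cells, 0.22 for Cxcl10 and 0.86 for Cxcl16 in monocytes or macrophages, and 1.09 for Cxcl10 in T cells. Finer subclusters weighted alike gave -2.19 for Cxcl9, 0.14 for Cxcl10 and 0.59 for Cxcl16 in monocytes or macrophages, 1.06 for Cxcl16 in conventional dendritic cells and 0.48 for Cxcl10 in T cells. Shared subclusters gave -1.77 for Cxcl9 and 0.81 for Cxcl10 in monocytes or macrophages.

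The log2 odds ratio of Cxcl10 over Cxcl9 was 2.78 in monocytes or macrophages, and 2.54 averaged over cells, 3.02 with clusters weighted alike, 2.47 thinned and 3.97 with Xist only. In conventional dendritic cells it was 1.61, and 1.44 with doublets kept, 1.18 thinned, 2.07 with Xist only, 1.06 with finer subclusters and 0.95 with shared ones. Unthinned, the log2 ratio of the share of cells with a UMI was -1.39 for Cxcl9 in monocytes or macrophages (-2.32 thinned) and 0.43 for Cxcl16 in conventional dendritic cells (0.94 thinned). Genes at least 2-fold apart numbered 175 with a pseudocount of 1 and 59 with 10 in T cells, 275 and 103 in monocytes or macrophages, 282 and 100 in conventional dendritic cells, and 62 and 37 in ILC3, where no filter on low counts gave 230.

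No paired analysis was possible because there was 1 library per genotype; leaving out a replicate does not apply. In NK cells Cxcr3 rested on 6 KO and 11 WT UMIs, and no difference was detectable at that depth.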
